A study of Mus musculus with 4 samples.

Results

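The respiratory chain of the inner mitochondrial membrane and ATP synthase are built from proteins of the nuclear and the mitochondrial genome, and the genes described here are the nuclear ones. They were taken by gene symbol: every gene of both deposited tables whose name begins with Nduf, Uqcr, Cox4 to Cox8 or Atp5, with Sdha to Sdhd and Cyc1, leaving out mitochondrially encoded genes and Gm gene models. The rule found 94 of 22564 listed genes. By position in the chain they were 7 core and 29 supernumerary (accessory) subunits and 7 assembly factors of complex I, 4 genes of complex II, 9 of complex III, 19 of complex IV, and 5 genes of the F1 head and 10 of the stalk and membrane part of ATP synthase, which is also called complex V. Ndufa4 was placed in complex IV, of which its product is a subunit. Another 4 genes that the rule takes in by name were kept apart: Atp5s, Atp5sl, Ndufa4l2 and the pseudogene Atp5l-ps1. Of the 94 genes, 92 passed a filter on low values. Cox8c, a testis form of a complex IV subunit, had no fragment in any library, and Atp5l-ps1 was under the filter.

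The study addressed which RNAs are bound by the protein FAM172A in mouse brown adipose tissue, by RNA immunoprecipitation and sequencing. RNA came down either with the antibody (IP) or with control immunoglobulin (IgG), and there were 4 libraries in 2 pairs. The titles mark every animal as WT, with no strain, sex or age. The IP and IgG libraries of the first pair are labelled cold, and those of the other pair, WT4, carry no cold label. The WT4 columns are named by title, whereas the columns of the first pair bear no title, and the cold label is theirs by elimination. Values of all 4 libraries are given in the order first-pair IP, first-pair IgG, WT4 IP and WT4 IgG. Cold exposure and pair therefore cannot be told apart, and it is not stated whether the pairs came from separate animals. No input library was used here, so that a level in IP or IgG is a level in recovered RNA and not in the tissue.

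Complex I passes electrons from NADH, and complex II those from succinate, to ubiquinone. Complex III hands them on to cytochrome c, and complex IV to oxygen. Complexes I, III and IV pump protons as they do so, and ATP synthase lets protons flow back through its membrane ring to turn the F1 head that makes ATP. Brown fat is rich in mitochondria and in respiratory chain, but its protons return largely through uncoupling protein 1, which releases heat, and in rodents it is known for little ATP synthase relative to its respiratory chain.

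Depth differed widely between the libraries. They held 6633653, 5587298, 1631880 and 360370 fragments. Brown adipocyte markers were in place, with all 15 listed genes above 0 in all 4 libraries, Ucp1 among them. All 18 listed skeletal muscle markers were also detected, at a summed level of 34463, 28456, 7055 and 5151 scaled CPM (the deposited scaled count divided by its pair's mean total and multiplied by 1000000), against 15683, 14877, 10794 and 5643 for the brown adipocyte list. Ttn alone held 178844, 132126, 7481 and 1284 of the muscle list's 227431, 159827, 10472 and 2061 fragments. These sums are not corrected for transcript length, so that their order between lists is not one of transcript numbers. Only Tnnc2 and Tnni1 of the muscle list were at 0, both in WT4 IgG. Summed endothelial markers were at 1111, 2664, 3553 and 2497, blood markers at 162, 299, 89.6 and 45 and macrophage markers at 70.9, 45.1, 54.7 and 182. In WT4 IgG 4 of 7 blood and 6 of 9 macrophage markers were at 0, Cd68 and Csf1r among them. The part of these cells in the values below was not tested, and fewer cells of a type cannot be told apart from less RNA per cell.

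The respiratory genes were abundant in the first pair and took a smaller share of all fragments in the WT4 pair. The 92 genes took 1.77% of fragments in each library of the first pair, 0.835% in WT4 IP and 0.627% in WT4 IgG. In FPKM, the authors' per-length and per-depth level, which was set separately in each table, their median was 118 in first-pair IP, 137 in first-pair IgG, 57.2 in WT4 IP and 18.0 in WT4 IgG. Atp5b, the catalytic beta subunit of F1, had the highest mean FPKM of all of them, at 2433, 1505, 789 and 927. Cox8b, a form of complex IV subunit VIII found in brown fat, heart and muscle, followed with 1066, 1716, 448 and 28.2. Atp5b was the higher of these genes in all libraries but first-pair IgG, and the ratio between them was furthest from 1 in WT4 IgG.

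By group, the WT4 IgG library stood below the other libraries for most complexes but not for the F1 head or the assembly factors. The median FPKM of the complex I core subunits was 197, 174, 72.4 and 21.1. For complex II it was 198, 182, 65.3 and 19.4, and for complex III 285, 263, 97.1 and 77.8. For complex IV it was 148, 221, 61.5 and 30.7. The F1 head had medians of 237, 216, 86.3 and 203, whereas the stalk and membrane subunits of the same enzyme had 138, 142, 56.3 and 8.32. Each F1 median was the value of a single gene, Atp5d, whose listed locus holds 46 genes, so that it is uncertain. The F1 genes ranged from 84.2 to 927 in WT4 IgG, and each was higher there than in WT4 IP. Complex I assembly factors, which act on the enzyme without staying in it, were the lowest of these groups in the first 3 libraries, at 12.4, 8.63 and 10.1, with 8.91 in WT4 IgG. The supernumerary subunits of complex I lay between, at 85.1, 111, 50.6 and 16.4.

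**Figure D1:**
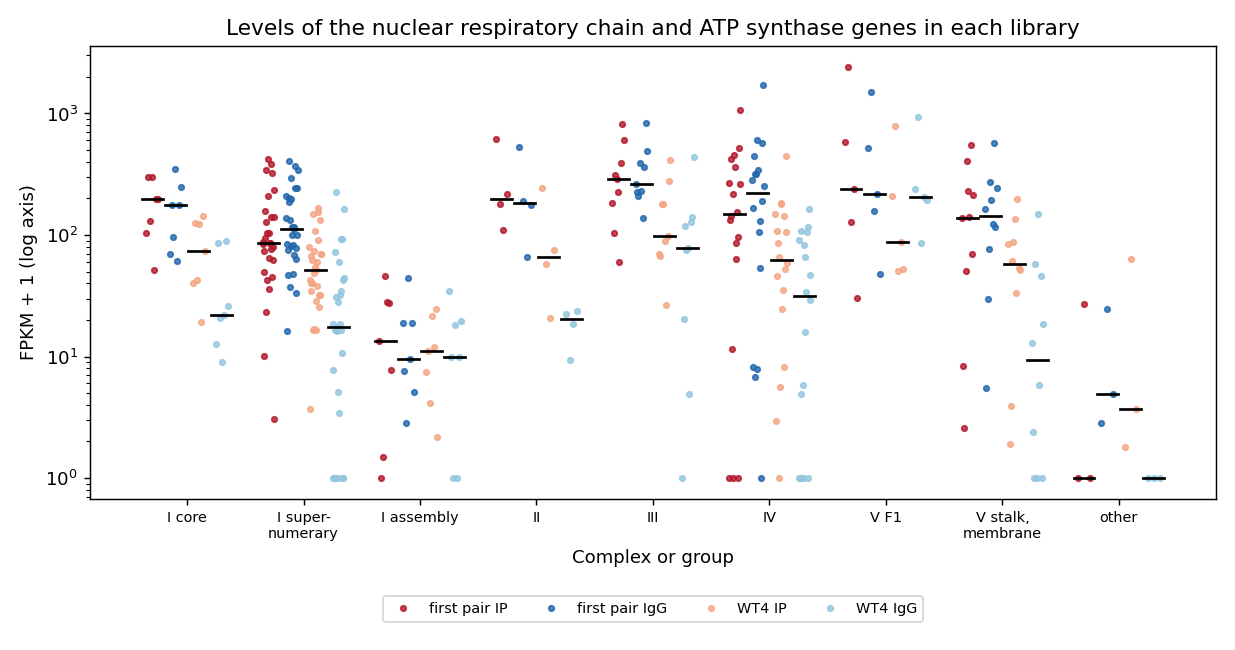
FPKM + 1 on a log axis for each of the 92 genes (points) in each library (colours), by complex, with the group's median as a black bar. The WT4 IgG bars fall below the other bars for complex I subunits, complexes II, III and IV and the stalk of ATP synthase. The F1 bar of WT4 IgG is at 203 FPKM, beside 237 and 216 in the first pair. Each F1 bar is the value of Atp5d, whose listed locus also holds other genes, and FPKM was set separately for each pair.

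Across the genes, the order of levels was much alike in 3 of the 4 libraries. Over the 92 genes, log2(FPKM + 1) of first-pair IP had a Pearson correlation of 0.92 (Spearman 0.93) with first-pair IgG and of 0.86 (0.88) with WT4 IP. WT4 IgG correlated at 0.56 (0.57) with first-pair IP and at 0.61 (0.63) with WT4 IP. Points here are genes of shared libraries and lengths and not independent replicates. Of the 92 genes, 47 had under 10 fragments in WT4 IgG, which limits the precision of every WT4 ratio. For 23 of the 92 the listed locus also holds other genes, so that their counts are uncertain.

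What the genes share in their promoters was described from the RefSeq windows on GRCm38.p6 of 250 bases before and 50 after a gene's start. Of the 94 genes, 73 matched 78 windows. The motif of nuclear respiratory factor 1 (NRF-1), a known activator of nuclear respiratory genes, was searched as GCGCA and GCGC with any base between them, on both strands, and occurred in 25.6% of the 78 windows, against 4.60% of all 32851 windows and 6.38% of 21263 protein-coding ones. The ETS motif CCGGAAG occurred in 21.8%, against 8.86% and 11.6%. The ERR motif TCAAGGTCA was in 2.56%, against 0.423% and 0.334%, CCAAT in 42.3%, against 37.4% and 38.2%, and TATAAA in 10.3%, against 13.6% and 12.6%. The printed windows belong to Atp5h and Ndufs6, at opposite ends of the IP to IgG ratios described later, and to the paralogs Cox8a and Cox8b, which differ between widespread and tissue-restricted use. Capitals mark the NRF-1, ETS and TATAAA letters found, while CCAAT, on either strand, is left in lower case and occurs 2 times in the window of Atp5h, 1 time each in those of Ndufs6 and Cox8a, and not in that of Cox8b. Atp5h (chr11:115419870-115420169, minus strand) has NRF-1 letters 141 bases before the start and an ETS motif 38 before it. Ndufs6 (chr13:73328433-73328732, minus) has NRF-1 letters 16 bases before its start. Cox8a (chr19:7217567-7217866, minus) has ETS motifs 5 bases before and 33 after its start. Cox8b (chr7:140900397-140900696, minus) has no NRF-1, ETS or ERR letters and a TATAAA 5 bases after the annotated start.
Atp5h: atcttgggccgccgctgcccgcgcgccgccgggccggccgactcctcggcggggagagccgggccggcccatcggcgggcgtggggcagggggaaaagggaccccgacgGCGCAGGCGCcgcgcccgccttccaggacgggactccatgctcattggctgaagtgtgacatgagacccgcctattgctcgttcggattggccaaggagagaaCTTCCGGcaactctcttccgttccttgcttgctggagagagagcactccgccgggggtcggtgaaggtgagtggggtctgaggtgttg
Ndufs6: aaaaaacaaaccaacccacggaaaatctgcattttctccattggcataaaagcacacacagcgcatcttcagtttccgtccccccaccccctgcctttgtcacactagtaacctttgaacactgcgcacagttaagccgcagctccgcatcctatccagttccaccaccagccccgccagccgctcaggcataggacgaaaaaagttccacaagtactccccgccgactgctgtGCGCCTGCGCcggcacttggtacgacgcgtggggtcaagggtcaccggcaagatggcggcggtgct
Cox8a: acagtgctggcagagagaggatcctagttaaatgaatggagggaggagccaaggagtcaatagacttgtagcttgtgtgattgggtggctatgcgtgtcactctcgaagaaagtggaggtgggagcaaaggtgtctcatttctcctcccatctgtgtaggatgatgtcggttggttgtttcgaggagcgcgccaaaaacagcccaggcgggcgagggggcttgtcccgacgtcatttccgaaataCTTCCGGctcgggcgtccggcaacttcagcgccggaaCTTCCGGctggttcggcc
Cox8b: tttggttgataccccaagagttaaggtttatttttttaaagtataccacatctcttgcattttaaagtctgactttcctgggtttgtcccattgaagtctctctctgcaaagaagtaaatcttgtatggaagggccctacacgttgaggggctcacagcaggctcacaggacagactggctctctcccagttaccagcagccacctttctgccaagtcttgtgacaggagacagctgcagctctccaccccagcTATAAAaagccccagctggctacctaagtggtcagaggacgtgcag
Of the printed windows, those of Atp5h and Ndufs6 both hold NRF-1 letters. Whether the letters go with the ratios was not tested. These matches describe letters in the DNA window; the libraries measured recovered RNA.

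IP was compared with IgG within each pair as the log2 ratio of scaled CPM, after adding 1. Genes with a mean of at least 1 scaled CPM over the 4 libraries were kept. In the first pair the respiratory genes lay close to no difference, with a median log2 ratio of -0.09 beside -0.03 over all 16217 genes kept. In that pair 53 of the 92 were within 0.5 of 0 and 76 within 1. In the WT4 pair the median was 1.30, beside 1.17 over all genes. Among genes of at least 100 scaled CPM the medians were -0.02 and 1.12 for the 41 respiratory genes in the first and WT4 pairs, beside -0.05 and 0.46 for all 1906 such genes.

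The WT4 median of all genes hangs on genes with no IgG fragment. With libraries at 0 set to a floor of 3 fragments, a bound chosen after seeing the data, the WT4 median of all genes was 0.01 and that of the respiratory genes 0.75. Where the other library's count was too low to bound a fold at this floor, the log2 ratio was set to 0. As 43% of all kept genes were at 0 in WT4 IgG, their median may lie near 0 through this setting. At 100 scaled CPM and above, the medians at the bound were 0.46 over all genes and 1.12 over respiratory genes. Centring each pair on its median of all genes takes 1.17 off every WT4 ratio, which puts the WT4 medians of complex III (-0.00478), complex IV (-0.25) and the assembly factors (-0.88) below 0. The 70 respiratory genes with a fragment in every library had medians of -0.04 in the first pair and 0.71 in WT4.

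A 2-fold line gives counts in place of a test, since a pair holds 1 library per group. In the first pair IP exceeded IgG by this factor in 4 of the 92 respiratory genes, and IgG exceeded IP in 12, where 13.3% and 26.9% of all kept genes were. In WT4, 51 were 2-fold higher and 4 lower, where the background was 51.6% and 19.3%. The WT4 count of 51 included 20 genes at 0 in IgG. With zeros at the floor it was 42 (45.7% of 92), beside 26.5% of all genes. At the floor, genes with too few fragments to bound a fold are set to 0 and cannot pass the line. In WT4 IgG 43% of all kept genes were at 0, beside 21 of the 92. The floor therefore lowered the share of all genes more, and these shares are not like for like. Among genes of at least 100 scaled CPM, 21 of 41 respiratory genes were 2-fold higher in WT4, where 30% of all such genes were, and 0 were lower, where 5.51% were. In the first pair 0 of the 41 passed the line in either direction, where 2.73% were higher and 8.08% lower. Accordingly 0 of the 41 passed it in both pairs, where 0.577% of such genes were higher and 0.63% lower.

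The pairs seldom passed the line together. Both pairs had IP over IgG by 2-fold or more in 3 of the 92 genes, where 7.19% of all kept genes were. These were the complex I subunit genes Ndufa2 and Ndufc1 and the assembly factor gene Ndufaf5. None (0 of 92) was 2-fold lower in both, where 5.25% of all genes were. Another 10 of the 92 passed the line in opposite directions, where 2812 of all 16217 kept genes did. Over the 92 genes the ratios of the first and WT4 pairs had a Pearson correlation of -0.01 and a Spearman correlation of -0.09, and over the 70 genes in all 4 libraries 0.05 and 0.03. Over all 16217 kept genes the Pearson and Spearman correlations were -0.02 and -0.01, likewise near 0.

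edgeR's quasi-likelihood test with the pair as a block called 0 of the 92 genes higher and 0 lower at an adjusted p under 0.05. Over all 16217 genes it called 1 higher (0.00617%) and 0 lower. At an unadjusted p under 0.05 it had 5 respiratory genes higher, where 0.857% of all genes were, and 0 lower, where 0.592% were. In edgeR the unadjusted p was 0.00681 for Atp5h, 0.0266 for Cyc1, 0.027 for Sdha, 0.0312 for Ndufb10 and 0.0412 for Ndufab1. The Benjamini-Hochberg adjusted p of each was 1 in edgeR. DESeq2 called 0 respiratory genes in either direction, where it called 0.00617% of all genes higher and 0 lower. At an unadjusted p under 0.05 it had 2 of them higher and 1 lower, where 1.06% and 2.25% of all genes were. Limma on scaled CPM also called 0 of them, where 0.074% of all genes were called higher and 0.00617% lower, and at an unadjusted p under 0.05 it had 10 higher and 1 lower, where 2.31% and 0.265% were. Of these tools limma on FPKM alone made a call among them, with Atp5h higher at an adjusted p of 0.0397, where 0.0185% of all genes were called higher and 0.00617% lower. At an unadjusted p under 0.05 limma on FPKM had 18 of them higher and 1 lower, where 2.5% and 1.12% were. With 1 residual degree of freedom per gene, the spread was pooled over genes in the edgeR fit.

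**Figure D2:**
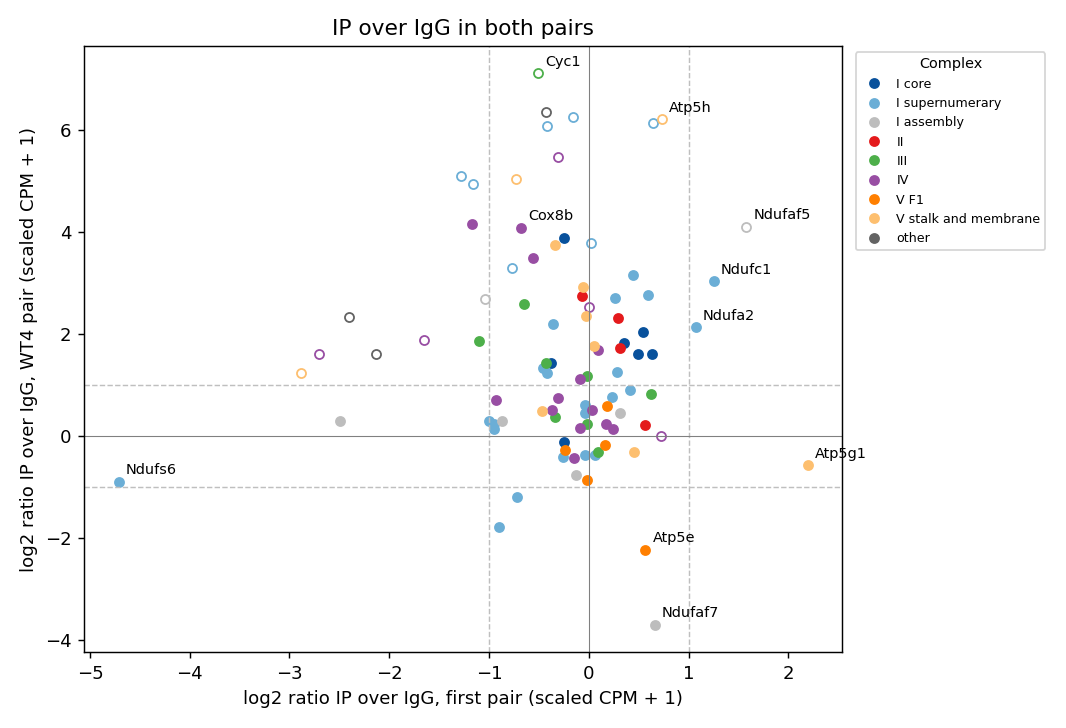
Log2 ratio of IP over IgG (scaled CPM + 1) in the first pair (x) and the WT4 pair (y) for the 92 genes, coloured by complex; open circles are genes at 0 fragments in WT4 IgG, and dashed lines mark 2-fold. Most points lie within 1 of 0 on the x axis and spread from -3.71 to 7.11 on the y axis, and 3 genes (Ndufaf5, Ndufc1, Ndufa2) lie past both upper lines.

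Complex I core subunits hold the flavin and iron-sulfur clusters that carry electrons from NADH to ubiquinone. The median of their log2 ratios was 0.35 in the first pair, with a range of -0.38 to 0.64, and 1.61 in WT4, with a range of -0.11 to 3.88. Each of the 7 had fragments in all 4 libraries, and 6 were 2-fold higher in WT4 IP, where 51.6% of all kept genes were. Ndufs1, the large iron-sulfur subunit, had 2484 fragments in IP and 1357 in IgG of the first pair and 273 and 24 in WT4, with log2 ratios of 0.64 and 1.60. Ndufv1, which binds FMN and NADH, had 2496, 1663, 344 and 26, with 0.35 and 1.82. Both genes were above IgG in both pairs and under the 2-fold line in the first, and on FPKM Ndufv1 was under it in WT4 too, at 0.69. Ndufs3, of the arm that faces the matrix, had 1025, 596, 96 and 6 fragments and ratios of 0.55 and 2.04. Ndufv2, which carries an iron-sulfur cluster beside the flavin, had 2316, 2571, 263 and 26 and ratios of -0.38 and 1.43. Ndufs8, with the clusters near the membrane, had 368, 372, 41 and 12 and ratios of -0.24 and -0.11. Ndufs8 was the core gene below IgG in both pairs.

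Ndufs7, which holds the last cluster before ubiquinone, had the highest WT4 ratio of the core. It had 1610 fragments in IP and 1624 in IgG of the first pair, and 184 and 3 in WT4. The log2 ratios were -0.24 and 3.88, and the WT4 ratio was 16.5-fold with a 95% counting interval of 5.57 to 80.9. That interval rests on 3 IgG fragments. Ndufs7 also shares a listed locus of 46 genes with Atp5d, so that its count is uncertain.

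The supernumerary subunits surround the core and serve its assembly and stability. The 29 had a median log2 ratio of -0.15 in the first pair and 1.26 in WT4, and spread from -4.71 to 1.25 and from -1.80 to 6.24. In the first pair 2 were 2-fold higher and 3 lower, where 13.3% and 26.9% of all kept genes were. In WT4 16 were higher and 2 lower, where 51.6% and 19.3% of all kept genes were. The 16 took in 7 genes at 0 in WT4 IgG. The most abundant by mean FPKM, Ndufa6 and Ndufb8, lay near 0 in the first pair. Ndufa6, a LYR-motif subunit, had FPKM of 340.0, 409, 148 and 223 and log2 ratios of -0.26 and -0.42. Ndufb8, of the membrane arm, had FPKM of 379, 367, 89.8 and 33.5 and ratios of -0.04 and 0.44. On scaled CPM neither passed the 2-fold line in either pair, but on FPKM Ndufb8 did in WT4, with a log2 ratio of 1.40.

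Ndufa2 and Ndufc1 were the subunit genes 2-fold higher in IP in both pairs. Ndufa2, a thioredoxin-fold subunit of the matrix arm, had 579 fragments in IP and 232 in IgG of the first pair and 70 and 4 in WT4. Its ratio was 2.12-fold (95% counting interval 1.82 to 2.48) in the first pair and 4.72-fold (1.76 to 17.8) in WT4, with an unadjusted p of 0.258 in edgeR. Ndufc1, a small subunit of the membrane arm, had 437, 153, 71 and 2 fragments. Its ratios were 2.43-fold (2.02 to 2.94) and 9.57-fold (2.55 to 80.5), with an unadjusted p of 0.235 in edgeR. The IP libraries were thus above their own IgG libraries beyond counting error in both pairs, but neither gene passed the test. Both genes were picked by the same counts, so that the intervals are no separate support. With each pair centred on its median of all genes, the WT4 log2 ratio of Ndufa2 was 0.96, under the 2-fold line. Ndufa2 shares its listed locus with another gene. On FPKM Ndufc1 missed the 2-fold line in the first pair, with 44.2 in IP and 32.1 in IgG.

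Ndufs6, a zinc-binding subunit needed to complete the matrix arm, was at the other extreme. It had 7 fragments in IP and 307 in IgG of the first pair, or FPKM of 2.04 and 99.1, and 73 and 37 fragments in WT4, or FPKM of 69.0 and 163. The first-pair IP library was low while WT4 IP was not. The log2 ratios were -4.71 and -0.90, which are ratios of 0.0194 (95% counting interval 0.00774 to 0.0405) and 0.532 (0.353 to 0.813), and edgeR gave an unadjusted p of 0.0592 and an adjusted p of 1. It was the gene of lowest mean ratio among those with fragments in every library, and on FPKM its WT4 log2 ratio of -1.23 was past the 2-fold line. Ndufa3, a small membrane-arm subunit, had 196, 316, 31 and 30 fragments and ratios of -0.90 and -1.80 (-1.10 and -0.83 on FPKM), and Ndufa11, which sits beside the membrane core, had 210, 298, 20 and 13 and ratios of -0.72 and -1.21.

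Other supernumerary subunits were near IgG in the first pair and high in WT4 on few IgG fragments. Ndufb3, of the membrane arm, had 346, 215, 45 and 1 fragments, with log2 ratios of 0.44 and 3.16. Ndufb10, of the same arm, had 2111, 1193, 160 and 6, with 0.59 and 2.77. Ndufab1, the mitochondrial acyl carrier protein, had 2615, 1854, 202 and 8, with 0.26 and 2.71.

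The 7 complex I assembly factors named Ndufaf had medians of -0.13 and 0.30 and went in different directions. Ndufaf5, which hydroxylates Ndufs7 during assembly, had 248, 67, 24 and 0 fragments. Its first-pair ratio was 3.15-fold (95% counting interval 2.40 to 4.19), and in WT4 the IP level was at least 2.16-fold higher against the floor of 3 fragments per library, with an unadjusted p of 0.408 in edgeR. Ndufaf7, a methyltransferase, had 132, 69, 7 and 31 fragments. Its log2 ratios of 0.66 and -3.71 had opposite signs, and the WT4 value was the lowest of the 92 genes. Ndufaf4, which had the highest mean FPKM of the factors, had 1213, 830, 158 and 31 fragments and ratios of 0.31 and 0.45.

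Complex II, succinate dehydrogenase, joins the citric acid cycle to the chain and is encoded wholly in the nucleus. The median log2 ratio of its 4 genes was 0.30 in the first pair and 2.02 in WT4. The summed complex took 0.218%, 0.180%, 0.0873% and 0.0311% of the fragments of the 4 libraries. Sdha, the flavoprotein that oxidises succinate, had 7996, 5574, 854 and 46 fragments, with FPKM of 616, 532, 243 and 21.5. Its ratio was 1.22-fold (95% counting interval 1.18 to 1.26) and 5.004-fold (3.72 to 6.89), which is 0.29 and 2.31 on the log2 scale. Sdha was thus above IgG beyond counting error in both pairs, on the deepest counts of the complex. Sdhb, the iron-sulfur subunit, had 1590, 1424, 157 and 6 fragments and ratios of -0.07 and 2.74. The membrane anchors differed in WT4. Sdhc had 2623, 1511, 176 and 41 fragments and ratios of 0.56 and 0.21, and Sdhd 2225, 1522, 237 and 19 with 0.31 and 1.73.

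Complex III had medians of -0.34 in the first pair and 1.17 in WT4, with 7 of its 9 genes below 0 in the first pair and 8 above 0 in WT4. Uqcrh, the hinge protein beside cytochrome c1, had the highest mean FPKM of the complex, at 825, 841, 279 and 139, and log2 ratios of -0.02 and 1.17. Uqcrq, a small membrane subunit, had FPKM of 599.7, 494, 409.6 and 438 and ratios of -0.34 and 0.37 on scaled CPM. On FPKM the signs of Uqcrq were the opposite in both pairs, at 0.28 and -0.10. Uqcrfs1, the Rieske iron-sulfur protein, had 4244, 3387, 334 and 113 fragments and ratios of 0.09 and -0.33. The abundant members of the complex were therefore within 2-fold of IgG in the first pair, and of these 3 only Uqcrh was past the line in WT4 on scaled CPM. Its listed locus holds 16 genes.

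In WT4 5 of the 9 genes of complex III were 2-fold higher and 0 lower, where 51.6% and 19.3% of all kept genes were. Cyc1, cytochrome c1 itself, had the highest WT4 ratio among them. It had 1723 fragments in IP and 2097 in IgG of the first pair, with FPKM of 183 and 263, and 203 and 0 in WT4. The first-pair ratio was 0.699 (95% counting interval 0.656 to 0.746), below IgG. At the WT4 IP level, 54.7 fragments would have been counted in WT4 IgG at its depth, and the ratio there was at least 18.2-fold. The pairs thus differed in sign for Cyc1, as they did for other genes of the complex, Uqcrc2 (-0.65 and 2.59) among them. Uqcrc1 and Uqcrc2, the core proteins that do not carry electrons, had WT4 ratios of 0.22 on 88 IgG fragments and 2.59 on 5.

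Complex IV had medians of -0.23 in the first pair and 0.93 in WT4. In the first pair 12 of 18 genes were below 0 and 3 were 2-fold lower, where 26.9% of all kept genes were. In WT4 9 were 2-fold higher, where 51.6% of all kept genes were. Cox4i2, Cox6b2 and Cox7b2 are among the 9 with 3, 4 and 7 IP fragments and 0 in IgG, too few to bound a fold. Cox5a is another, with 64 and 0. Several subunits of complex IV exist as a widespread form and a form used in some tissues, which are compared here in FPKM. Cox4i1, the widespread subunit IV, had 269, 284, 148 and 89.7 and log2 ratios of -0.09 and 1.12, the latter 0.72 on FPKM. Cox4i2, a lung form, had 0, 7.15, 1.96 and 0. The widespread form was the higher of this set in every library. Cox4i2 rested on 0, 31, 3 and 0 fragments, and IP was at least 12.1-fold lower in the first pair. The count of Cox4i1 is uncertain, since its listed locus holds 75 genes.

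For subunit VIa, Cox6a1, the widespread form, was at 142, 317, 85.6 and 3.92 FPKM, and Cox6a2, the heart and muscle form, at 10.5, 5.79, 0 and 0. Cox6a1 had log2 ratios of -1.17 and 4.15, the latter on 91 IP fragments and 1 IgG fragment. IP was thus past the 2-fold line below IgG in the deeper pair and above IgG in WT4. For subunit VIb, Cox6b1 was at 215, 318, 65.5 and 4.86 FPKM, with ratios of -0.56 and 3.49, and the testis form Cox6b2 at 0, 6.85, 4.62 and 0. Cox6b2 had 12 fragments in first-pair IgG and none in IP, which was at least 4.70-fold lower.

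For subunits VIIa and VIII, the forms known from brown fat, heart and muscle were the higher ones in the first pair and in WT4 IP. Cox7a1 was at 359, 340, 182 and 65.0 FPKM, with log2 ratios of 0.09 and 1.69, and the widespread Cox7a2 at 84.5, 105, 23.6 and 15, with -0.31 and 0.73. Cox8b was at 1066, 1716, 448 and 28.2 and the widespread Cox8a at 516, 572, 105 and 161. In WT4 IgG the order of Cox8a and Cox8b was therefore turned around. Cox8b had 1938, 2639, 212 and 3 fragments and ratios of 0.625 (95% counting interval 0.589 to 0.663) in the first pair and 19.0 (6.43 to 93.1) in WT4. Cox8a had 1776, 1673, 104 and 38 fragments, with log2 ratios of -0.15 and -0.43. The muscle marker sums given with the library depths were 34463, 28456, 7055 and 5151 scaled CPM in the same libraries, and their part in the levels of these forms was not tested. Most fragments behind those sums were from Ttn.

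**Figure D3:**
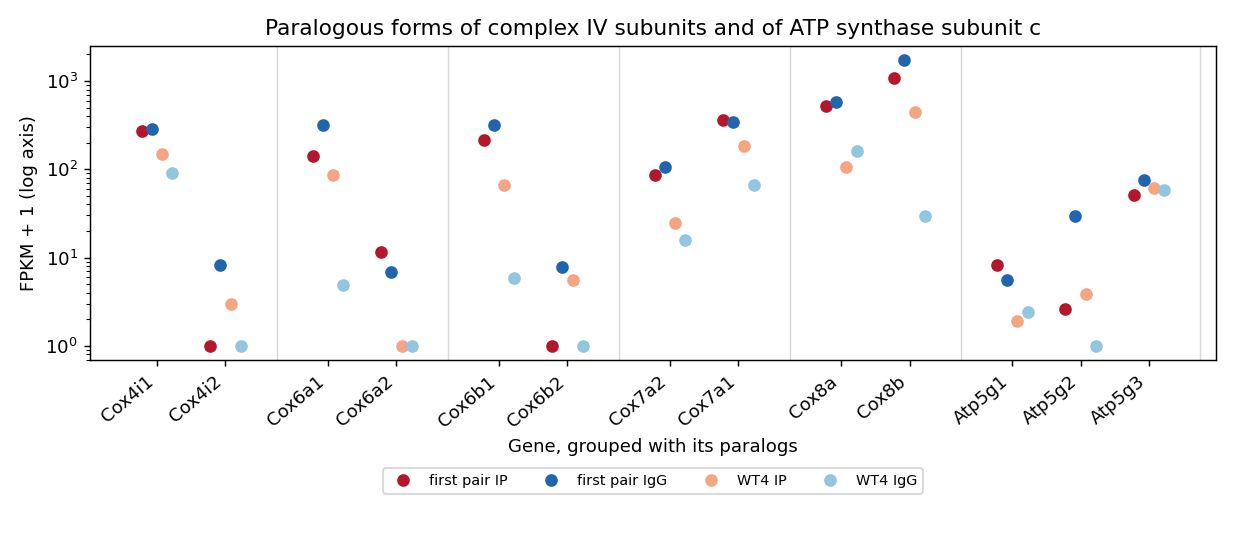
FPKM + 1 on a log axis for paralogous subunits of complex IV and for the 3 genes of ATP synthase subunit c, with 1 point per library. Cox4i1, Cox6a1 and Cox6b1 lie above their tissue forms, Cox7a1 above Cox7a2 in all 4 libraries, and Cox8b above Cox8a except in WT4 IgG, where Cox8b is at 28.2 and Cox8a at 161.

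The remaining subunits of complex IV stayed within 2-fold of IgG in the first pair. Among them the testis form Cox7b2 had 7 fragments in WT4 IP and 0 elsewhere. Cox5a, beside the catalytic core, had 630, 665, 64 and 0 fragments. Cox5b, its zinc-binding neighbour, had 1521, 1373, 111 and 27, with log2 ratios of -0.09 and 0.15. Cox6c had 1497, 1650, 216 and 41, with -0.37 and 0.50. Cox7c had 330, 539, 55 and 9, with -0.93 and 0.70. On scaled CPM none of these genes with a fragment in WT4 IgG passed the 2-fold line in WT4, but on FPKM Cox6c did upwards, at 1.10, and Cox7c downwards, at -1.15.

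ATP synthase split between its parts in WT4. The 5 genes of the F1 head had a median log2 ratio of 0.16 in the first pair and -0.28 in WT4, where 4 of the 5 were below 0. The 10 genes of the stalk and membrane part had -0.05 and 2.05, with 7 of them 2-fold higher in WT4 IP, where 51.6% of all kept genes were. Atp5g2 is among the 7 with 2 IP fragments and 0 in IgG, too few to bound a fold. Atp5h and Atp5l were also at 0 in WT4 IgG. The difference between the parts was not tested. As sums, F1 took 0.421%, 0.387%, 0.178% and 0.229% of the libraries, and the stalk and membrane part 0.126%, 0.118%, 0.0573% and 0.0311%.

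In F1, Atp5a1, the alpha subunit, had 12327, 9404, 1400 and 427 fragments and log2 ratios of 0.16 and -0.18. Atp5b had 12498, 9389, 1118 and 200 and ratios of 0.18 and 0.59, while on FPKM its ratios were 0.69 and -0.23. The sign for Atp5b in WT4 thus depended on which deposited column was used. Atp5c1, of the rotating gamma subunit, had 1152, 1160, 140 and 46 fragments and ratios of -0.24 and -0.28. Atp5d, the delta subunit of the central stalk, had 1801, 1558, 203 and 100, with -0.02 and -0.87, and it shares the 46-gene locus of Ndufs7. Atp5e, the small epsilon subunit, had 170, 96, 39 and 51, with 0.56 and -2.24. The FPKM of Atp5e was 29.4, 47.2, 52.0 and 191, so that its first-pair ratio was -0.67 on FPKM, of the opposite sign, and its WT4 ratio -1.86. Atp5d was past the 2-fold line in WT4 on FPKM, at -1.22.

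In the stalk and membrane part, Atp5h, subunit d of the peripheral stalk, had 1772 fragments in IP and 907 in IgG of the first pair and 108 and 0 in WT4. Its FPKM were 403, 269, 86.3 and 0. The first-pair ratio was 1.66-fold (95% counting interval 1.53 to 1.80), and at the WT4 IP level 29.1 fragments would have been counted in WT4 IgG, so that the ratio was at least 9.70-fold. Atp5h was above IgG in both pairs, under the 2-fold line in the first, and had the smallest unadjusted p of the 92 genes in edgeR (0.00681). Atp5j2, subunit f, had 642, 692, 68 and 1 fragments and ratios of -0.34 and 3.74, with a first-pair ratio of 0.18 on FPKM. Atp5k, subunit e, which holds dimers together, had 1073, 934, 100 and 5, with -0.03 and 2.34. Atp5f1, subunit b of the peripheral stalk, had 1675, 1380, 216 and 17, with 0.05 (-0.24 on FPKM) and 1.75. Atp5j, the coupling factor, had 1325, 825, 179 and 60, with 0.45 and -0.31. Genes of the peripheral stalk were thus found both above and below IgG in WT4.

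Subunit c, which forms the proton-driven ring, is encoded by 3 genes whose mature protein is the same. Atp5g3 was the most abundant, at 49.97, 75.5, 59.7 and 57.1 FPKM, and had log2 ratios of -0.47 and 0.48. Atp5g1, whose expression is known in mice to limit how much ATP synthase brown fat contains, was at 7.30, 4.52, 0.898 and 1.40 FPKM. Atp5g2 was at 1.59, 28.7, 2.90 and 0. The rarer genes had opposite ratios in the first pair, with 104 IP and 15 IgG fragments for Atp5g1 (log2 ratio 2.19) and 4 and 61 for Atp5g2 (-2.88). In WT4 they had 12 and 5 fragments (-0.57) and 2 and 0. On FPKM the first-pair log2 ratio of Atp5g1 was 0.59, under the 2-fold line. Counts of such similar genes are uncertain, since reads can fit more than a single copy.

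Absence from WT4 IgG was less frequent over the 92 genes than over all kept genes, but not among genes of at least 100 scaled CPM. The median FPKM in first-pair IgG was 137 for the 92 genes and 4.83 for all kept genes. A part of level in the shares was not tested. Of the 92, 21 had 0 fragments there, where 43% of all kept genes had, and of the 41 at 100 scaled CPM or more, Cyc1 and Atp5h had 0, where 1.89% of such genes had. None of the complex I core, complex II or F1 genes was among the 21, and 7 were supernumerary subunits of complex I and 5 genes of complex IV. With the genes under the filter, 23 of the 94 were at 0 there. The floor left IP at least 2-fold higher for 11 of these 23, the IP count was too low to bound a fold for 8, and 2 had no fragment in either WT4 library. After Cyc1 the bounds were at least 10.8-fold for Atp5sl, 9.97-fold for Ndufb11, 9.70-fold for Atp5h, 9.25-fold for Ndufa13 and 8.90-fold for Ndufs5. The first-pair log2 ratios of the same genes were -0.43, -0.15, 0.73, 0.64 and -0.42. Those genes did not stand apart from IgG by 2-fold in the deeper pair.

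**Figure D4:**
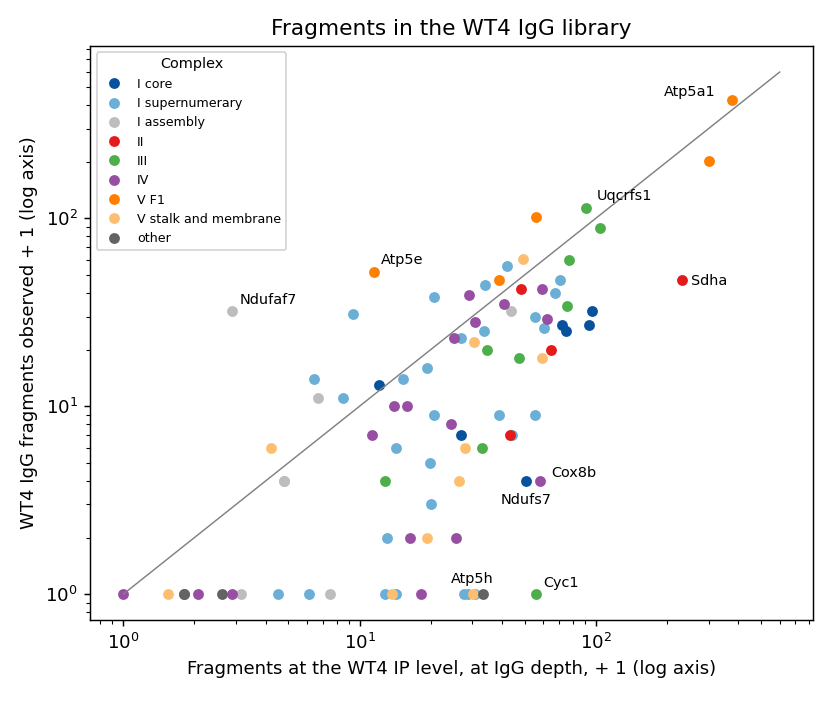
Fragments counted in WT4 IgG (y) against the number that its depth would give at the gene's WT4 IP level (x), both + 1 on log axes, with the line of equality; colours are complexes. Cyc1 is at 0 where 54.7 would be counted at the IP level and Atp5h at 0 where 29.1 would be, while Atp5a1 with 427 lies close to the line and Ndufaf7 and Atp5e lie above it.

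Transcript length went with the ratios only weakly. Across the 92 genes, the Pearson correlation of the ratio with length was 0.26 in the first pair and -0.10 in WT4. The 41 genes under 800 bases had a median log2 ratio of -0.31 in the first pair and 1.33 in WT4, and the 51 longer ones -0.04 and 1.26. With the level the first-pair ratio correlated at 0.41 and the WT4 ratio at -0.06. These genes share libraries, and a part of length or level in the ratios was not tested.

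Partner genes outside the name rule were read from lists of the same pathway. Of the 13 mitochondrially encoded subunits, 12 were kept, with medians of 0.20 and 1.05, and mt-Atp6 and mt-Nd6 were 2-fold higher in both pairs. mt-Atp6, the subunit of the proton channel that works against the subunit c ring, had 66933, 2381, 611 and 1 fragments and was the single gene that edgeR called. It shares its listed locus with other mitochondrial genes, so that its count is uncertain. Of 57 assembly factors and electron carriers, 51 were kept, with medians of -0.02 and 1.23. In both pairs 8 of them were 2-fold higher (Coa3, Coa6, Coq3, Coq7, Cox18, Pet117, Timmdc1 and Tmem126b) and 1 was lower (Pdss1), where 7.19% and 5.25% of all genes were. Coa3, Coa6, Coq3, Cox18, Pet117 and Timmdc1 were at 0 in WT4 IgG, with 19, 28, 17, 11, 8 and 63 fragments in WT4 IP. For Cox18 and Pet117 that is too few to bound a fold at the floor of 3 fragments. Tmem126b, an assembly factor of the complex I membrane arm, had 371, 41, 85 and 6 fragments, with log2 ratios of 2.79 and 1.86. Timmdc1, which acts at the same step, had 653, 206, 63 and 0, with 1.41 in the first pair. Coq7, a hydroxylase of ubiquinone synthesis, had 459, 189, 84 and 8, with 1.03 and 1.46. Pdss1, which makes the side chain of ubiquinone, had 53, 124, 29 and 43, with -1.35 and -2.40.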

How the data were processed

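Ribosomal RNA was depleted and strand-specific libraries were made, per the labels' protocols. The submitters' processing notes name mm10, Cuffdiff, Cufflinks, HISAT2 and cutadapt 1.9.3. Which annotation was counted is not given in the sources. The authors deposited estimated counts and FPKM per gene, in 1 table per pair, each normalized separately. The deposited estimated counts were multiples of 1 step per library, and after division 94.4% to 97.8% of non-zero values were within 0.05 of a whole fragment. Fragments were rounded before count tests. Rows of 1 symbol were summed, and genes with a mean of at least 1 scaled CPM were kept.

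edgeR 4.0.16 (R 4.3.3) was run over all kept genes blocked by pair, with the authors' scaling as library sizes and p-values adjusted by Benjamini-Hochberg; DESeq2 1.42.0 and limma 3.58.1 were alternatives. The pairing comes from titles and tables. As nothing says that the pairs are separate animals, p-values measure only the spread between these samples, which may be technical. Intervals (Clopper-Pearson, 95%) and floors of 3 fragments cover counting error only. The edgeR procedure was tested on simulated counts with changes far larger than most ratios described here. That test cannot show how often changes of a few fold would be called. Coordinates of windows are from RefSeq GRCm38.p6, transcript lengths from GENCODE vM21.

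Members, lists and tests were chosen with earlier results of these data known. Genes were named if 2-fold the same way in both pairs, among the 5 highest or lowest mean ratios with fragments in every library, among the 2 highest of a complex in FPKM, or as paralogs, complex II or complex I core. A gene that the rule takes is not reported here. Genes named beyond that rule (Ndufb10, Ndufab1, Ndufaf4, Uqcrfs1, Uqcrc1, Uqcrc2, Cyc1, Cox5a, Cox5b, Cox6c, Cox7c, Cox7b2, Atp5c1, Atp5d, Atp5f1, Atp5h, Atp5j, Atp5k and those at 0 in WT4 IgG) were chosen after their values were seen.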

Additional observations from a re-analysis of the deposited data

How the results depend on the processing

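The counts of calls were 0 higher and 0 lower with edgeR under TMM factors, total fragments, centring, no filter or a filter at 10 scaled CPM, without the replicate block, and when each library was left out in turn (0 to 0, with no block and a lone sample assumed to vary like the others). DESeq2 and limma on scaled CPM also gave 0, and limma on FPKM gave 1 higher, Atp5h. Counts and medians kept within the limits set (1.5 times a count, 1 SD for a median) in 219 of 234 recalculations, and values of named genes in 663 of 710. The SD was that between the 2 pairs' values of the same median or gene. The limit was therefore loosest where the pairs differed most, and staying within it says little for such values. Scaling moved the WT4 median of all genes from 1.17 to 0.90 with total fragments and 1.35 with TMM factors. Centring each pair on its median of all genes took 1.17 off the WT4 ratios. It moved the WT4 medians to 0.12 for all respiratory genes, 0.43 for the complex I core, 0.084 for supernumerary subunits, -0.88 for assembly factors, -0.25 for complex IV and -1.46 for F1, and reversed those of complex III (-0.00478), Uqcrh (-0.00478) and Cox4i1 (-0.056). Genes 2-fold lower in both pairs became 1, Ndufs6, when centred, with total fragments or on FPKM. The F1 median in WT4 was -0.76 on FPKM. Assembly factor medians were 0.49 and -0.16 (first pair and WT4) with the filter at 10 scaled CPM, and -0.24 in WT4 over genes in all 4 libraries. Genes 2-fold higher in both pairs were 2 when centred (Ndufaf5, Ndufc1), on FPKM (Ndufa2, Ndufaf5), over genes with a listed locus of their own (Ndufaf5, Ndufc1) and over genes in all 4 libraries (Ndufa2, Ndufc1). Leaving out a library removes its pair's ratio, so medians and 2-fold counts have no such value. Depth in WT4 IgG limits every WT4 ratio.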
